A study of Mus musculus with 4 samples.

Results

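The small nucleolar RNA (snoRNA) genes and the related small Cajal body RNA (scaRNA) genes were examined in Mbd4 KO and control cells of CH12.F3, an established B lymphoma line of the mouse. They were taken as every transcript cluster, the array's unit for a gene, that the platform's gene table pairs with exactly 1 symbol starting with Snora, Snord or Scarna. This gave 60 of the 21789 clusters with 1 symbol, for 54 genes: 33 clusters of box C/D snoRNAs (Snord), 23 of box H/ACA snoRNAs (Snora) and 4 of scaRNAs. Values came from 4 whole-transcript arrays, 2 of Mbd4 KO cells and 2 of control cells. Both groups were kept in medium with 6% serum and were stimulated over 24 hours with CD40L (25% by volume), TGFb (0.2 ng/ml) and IL-4 (5 ng/ml), a mixture that makes this line switch to IgA. Mbd4 encodes a base excision repair enzyme that recognises methylated DNA and takes out mismatched T or U opposite G. The labels do not say how many knockout clones the Mbd4 KO arrays stand for, or whether separate cultures were used within a group. The p-values therefore reflect the spread between arrays alone, and that spread may be technical.

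Most mammalian snoRNAs lie in introns of a host gene, often a gene for a ribosomal protein or a translation factor, and are trimmed out of the spliced intron. Box C/D snoRNAs guide ribose methylation of ribosomal RNA and box H/ACA snoRNAs guide its pseudouridylation, while a few of either class, such as U8, U14, U17 and U22, are needed to cut the ribosomal RNA precursor. The scaRNAs guide the same changes on spliceosomal RNAs in Cajal bodies. snoRNAs carry no poly(A) tail, and the extraction protocol in the labels names polyA RNA and a clean-up column of a type that holds RNAs of their length poorly. Probes within an intronic snoRNA also match the unspliced host transcript, and these arrays do not tell mature snoRNA from unspliced host RNA.

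The start sites of the host genes are shown because genes that host snoRNAs often begin with a C followed by a run of pyrimidines, the terminal oligopyrimidine tract of genes for the translation machinery. In the RefSeq windows around gene starts (GRCm38.p6), 32 of 43 host genes of the members were matched, with 34 windows. A C at the start followed by 4 or more bases that are C or T, on the coding strand, was found in 6 of the 34 windows (17.6%), against 823 of all 32851 windows (2.51%). The lines below give the 30 bases before and the first 30 bases from the annotated start of the hosts of the snoRNAs with the largest differences, and of Gas5, a noncoding gene known mainly as a snoRNA host. Capitals mark such a run where it begins at the annotated start.
2410006H16Rik, host of Snord49a and Snord49b (chr11:62602847-62602906, plus strand): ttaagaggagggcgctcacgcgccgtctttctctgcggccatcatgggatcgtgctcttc
Wdr43, host of Snord53 (chr17:71616185-71616244, plus strand): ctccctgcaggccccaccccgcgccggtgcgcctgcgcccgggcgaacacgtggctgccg
Rps3, host of Snord15a and Snord15b (chr7:99483680-99483739, minus strand): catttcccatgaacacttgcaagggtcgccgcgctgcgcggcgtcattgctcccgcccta
Snhg12, host of Snora16a and Snora44 (chr4:132308648-132308707, plus strand): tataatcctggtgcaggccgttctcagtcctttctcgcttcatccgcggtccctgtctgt
Ncl, host of Snora75 and Snord82 (chr1:86359426-86359485, minus strand): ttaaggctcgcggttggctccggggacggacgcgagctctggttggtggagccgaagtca
Rplp2, host of Snora52 (chr7:141447621-141447680, plus strand): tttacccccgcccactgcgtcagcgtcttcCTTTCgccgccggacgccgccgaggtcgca
Gas5, host of Snord47 (chr1:161035136-161035195, plus strand): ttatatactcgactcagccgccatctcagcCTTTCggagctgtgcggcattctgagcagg
Of these windows, those of Rplp2 and Gas5 hold the run at the annotated start, and the others do not by this definition. For Gas5 only a window with the run was shown, so its run is an example and no finding. In Rplp2 several pyrimidines also stand just before the annotated start, and in Gas5 a lone C does. In 2410006H16Rik and Snhg12 pyrimidines stand on both sides of the annotated start, but no run that fits the definition begins there.

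Mbd4 itself was lower in Mbd4 KO cells, with 6.47 and 6.49 (log2) on the Mbd4 KO arrays, against 8.74 and 8.77 on the control arrays, a 4.86-fold difference (limma adjusted p = 0.0002). The labels do not say whether its probes lie within the deleted part. All 7 of 8 listed B cell markers that were measured exceeded the upper quartile of all 4 arrays, while 0 of 5 T cell and 0 of 4 fibroblast markers did. Of the 4 macrophage markers 1, Cd68, did. Under the medians of all 4 arrays lay 4 of 5 T cell, 2 of 4 macrophage and 0 of 4 fibroblast markers, and none of these lists had a member past the threshold. Array medians were 6.965 and 6.971 in Mbd4 KO and 6.944 and 6.978 in control (log2). Of the 60 snoRNA and scaRNA clusters, 50 lay above the median of all 4 arrays, 24 above the upper quartile and 1, Snord61, under the lower quartile.

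Values of the snoRNA genes were slightly higher in Mbd4 KO cells as a group, yet no single one passed the test. The Mbd4 KO mean exceeded the control mean in 55 of 60 clusters, as it did in 57.6% of all clusters tested. The median difference was 0.18 (log2, Mbd4 KO minus control), against 0.02 over all clusters tested, and the differences ran between -0.20 for Snord58b and 0.43 for Snord49b. Both Mbd4 KO arrays were above both control arrays in 37 of 60 clusters, which held for 26.7% of all clusters, and both were below in 0 of 60, against 18.3% of all clusters. Counting clusters with identical values once left 57, with 52 above 0 and 35 not overlapping, and the same median of 0.18. Clusters share their arrays, so these counts describe the arrays and are no test.

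By limma with Benjamini-Hochberg adjustment over all 21789 clusters, 0 of 60 passed an adjusted p of 0.05, against 1.39% of all clusters (0.431% as higher and 0.955% as lower in Mbd4 KO cells), and the lowest adjusted p was 0.0814 (Snord49b). At an unadjusted p under 0.05 the count was 22 of 60, against 13.8% of all clusters. All 22 were higher in Mbd4 KO cells, against 7.4% of all clusters, and 0 were lower, against 6.43%. In simulated arrays of this size limma recovered 0 of 68 changes of 0.25 and 12.1% of changes of 0.5 (log2). Other settings of the test called some members, all higher: 5 (Snord49b, Snord53, Snord15b, Snora75 and Snora52) with an intensity trend in the prior, which called 1.83% of all clusters as higher, and Snord49b and Snord53 when the dimmest 30% of clusters were removed, where 1.47% were called higher.

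**Figure D1:**
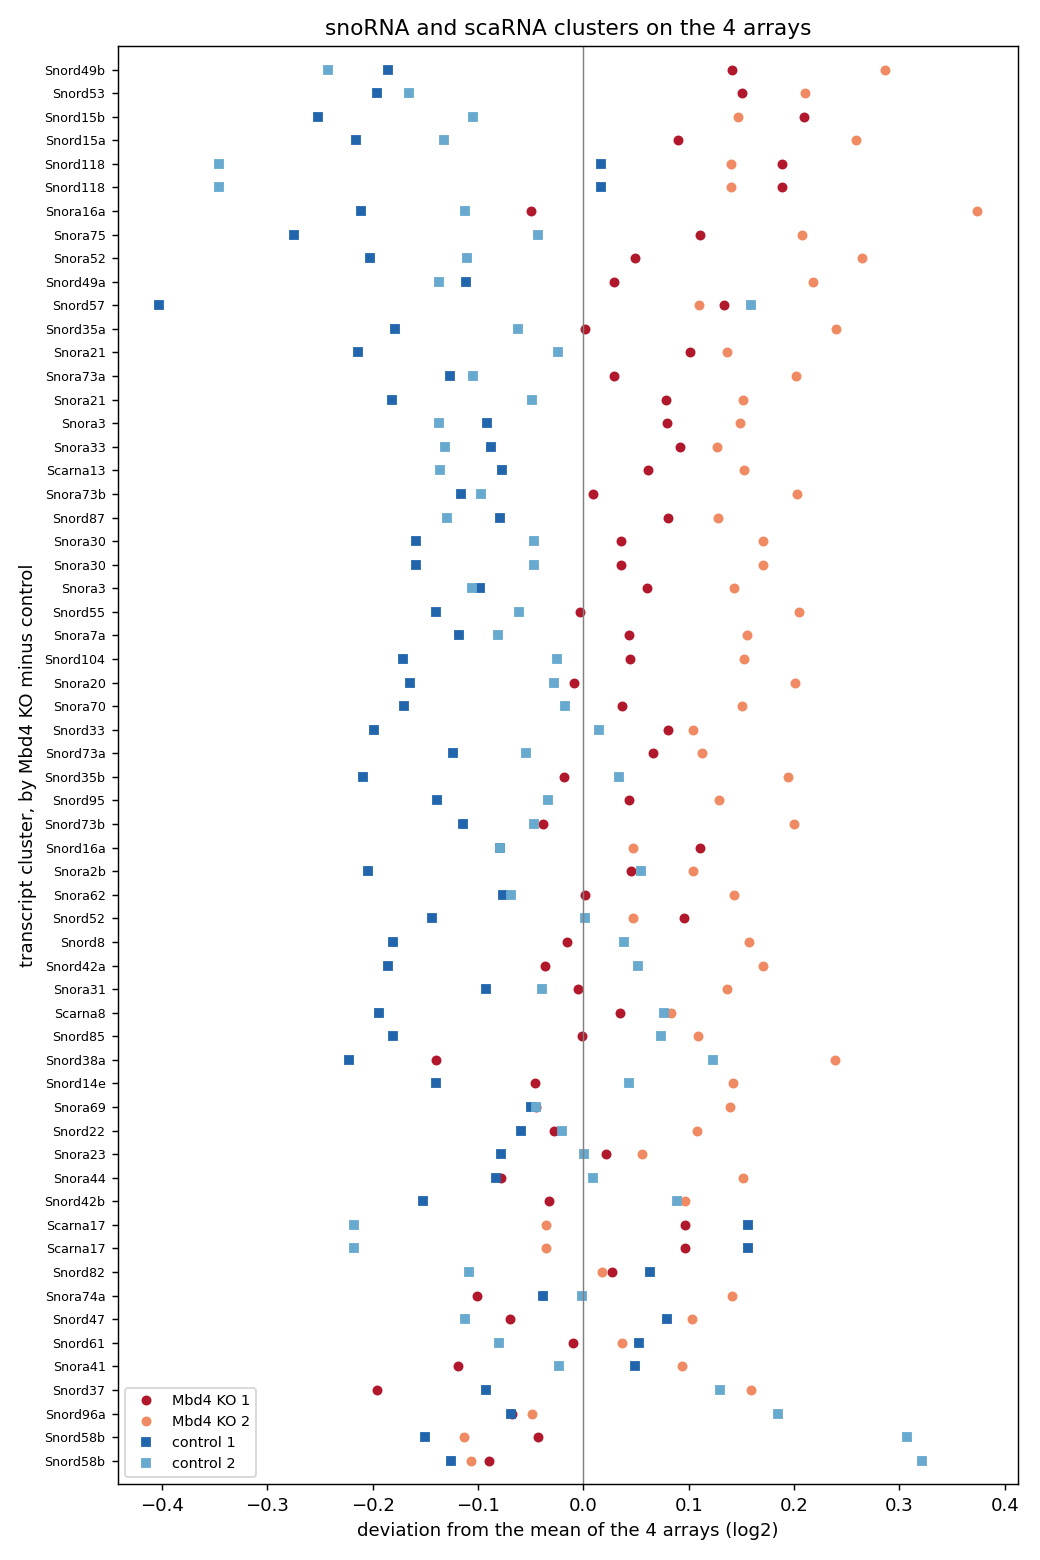
Each row is 1 of the 60 snoRNA or scaRNA transcript clusters, ordered by Mbd4 KO minus control, and each point is 1 array's value minus the mean of the 4 arrays for that cluster (log2). Circles are the Mbd4 KO arrays and squares the control arrays, and the circles lie right of both squares in 37 rows.

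The shift was not equal on the arrays of a group. The median deviation of the 60 clusters from their own 4-array means was 0.03 on Mbd4 KO array 1 and 0.14 on Mbd4 KO array 2, against -0.13 on control array 1 and -0.05 on control array 2. Over all clusters tested the same medians were 0.01 and 0.01 in Mbd4 KO, against -0.01 and -0.01 in control. Mbd4 KO array 2 held the highest value in 47 of 60 clusters and control array 1 the lowest in 43. Between arrays of the same group the median gap was 0.11 (Mbd4 KO array 2 minus array 1, positive in 49 of 60) and 0.09 (control array 2 minus array 1, positive in 45 of 60), next to 0.18 between the groups. The members thus moved together between arrays of the same group too, and the part of this in the group difference was not tested. With 1 array left out the median difference lay between 0.12 (without Mbd4 KO array 2) and 0.23 (without Mbd4 KO array 1).

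The microRNA genes, a second class of short RNA genes, did not show a median of this size. Their 305 clusters had a median difference of 0.03, with 195 (63.9%) above 0, against 57.6% of all clusters. Past the threshold was 1 (higher), against 0.431% of all clusters. In 83 (27.2%) both Mbd4 KO arrays were above both control arrays, close to the 26.7% of all clusters. Their median gaps between arrays of a group were -0.00 (Mbd4 KO array 2 minus array 1) and -0.02 (control array 2 minus array 1). Many of these were dim, with 149 of 305 under the lower quartile on all 4 arrays.

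**Figure D2:**
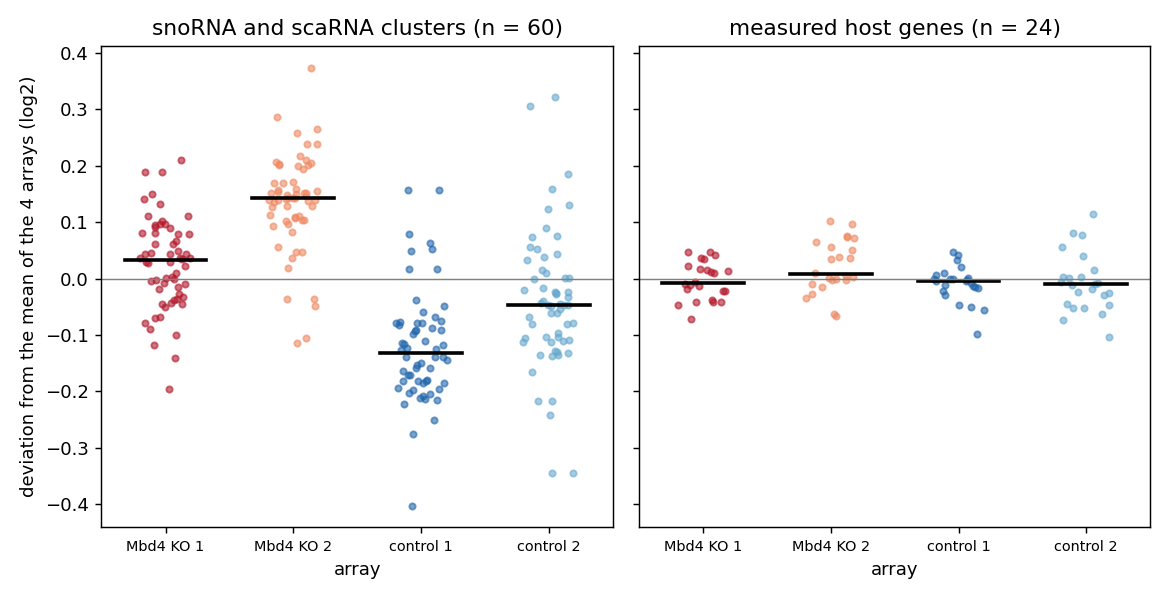
Points are clusters, plotted as the deviation from the cluster's own mean over the 4 arrays (log2) on each array, and black bars are medians. The left panel holds the 60 snoRNA and scaRNA clusters, with medians between -0.13 (control array 1) and 0.14 (Mbd4 KO array 2), and the right panel the 24 measured host genes, with medians between -0.01 and 0.01.

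Among the box C/D snoRNAs the median difference was 0.16 over 33 clusters, with 29 above 0. Both Mbd4 KO arrays were above both control arrays in 17 of 33 (51.5%), against 26.7% of all clusters. Snord49b, a methylation guide in the noncoding host 2410006H16Rik, had the largest difference of all, with 11.13 and 11.28 on the Mbd4 KO arrays, against 10.81 and 10.75 on the control arrays. Both Mbd4 KO values lay above both control values, by 0.43 ± 0.079 (log2, SE; limma adjusted p = 0.0814), or 1.34-fold. Snord53, from an intron of the ribosome biogenesis gene Wdr43, had 10.17 and 10.23 in Mbd4 KO, against 9.83 and 9.86 in control, a difference of 0.36 ± 0.068 (SE; limma adjusted p = 0.0835). For Snord53 arrays of the same group lay close together, while the Mbd4 KO arrays of Snord49b were farther apart (SD 0.10). The groups did not overlap for either.

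The snoRNAs of the U15 family, both in introns of the ribosomal protein gene Rps3, gave nearly the same difference. Snord15b had 8.36 and 8.30 in Mbd4 KO, against 7.90 and 8.05 in control, and differed by 0.36 ± 0.080 (SE; limma adjusted p = 0.124). Snord15a had 7.60 and 7.76 in Mbd4 KO, against 7.29 and 7.37 in control, and differed by 0.35 ± 0.085 (adjusted p = 0.151). Groups did not overlap for either.

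Snord118, the U8 RNA needed for maturation of the large-subunit ribosomal RNAs, was the 1 gene for which no host was found in the annotation. Its 2 clusters shared all 4 values, 5.90 and 5.86 in Mbd4 KO, against 5.73 and 5.37 in control, with a difference of 0.33 ± 0.12 (SE; limma adjusted p = 0.326). The gap between the control arrays was larger than the difference between the groups, and the level lay close to the lower quartile of the arrays. Without control array 2 the difference was 0.15, and without control array 1 it was 0.51.

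The snoRNAs in Rpl13a, a host whose C/D snoRNAs have been tied to the response to lipid stress, were both higher on the Mbd4 KO arrays. Snord35a had 9.22 and 9.46 in Mbd4 KO, against 9.04 and 9.16 in control, a difference of 0.24 (limma adjusted p = 0.371). Snord33 had 9.23 and 9.26 in Mbd4 KO, against 8.95 and 9.17 in control, a difference of 0.18 (adjusted p = 0.441). The groups did not overlap for either, with control array 2 nearest to the Mbd4 KO arrays.

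Snord22, the U22 RNA in Snhg1, is needed for cleavage of the small-subunit precursor. It had 8.59 and 8.73 in Mbd4 KO, against 8.56 and 8.60 in control, and its groups overlapped (0.08, adjusted p = 0.711). Snord14e, a U14 RNA in the chaperone gene Hspa8, gave 9.93 and 10.12 in Mbd4 KO, against 9.84 and 10.02 in control (0.10, adjusted p = 0.73). Other U14 clusters, which carry several symbols, differed by 0.20 (Snord14a, paired with Rps13) and 0.23 (both clusters of Snord14c and Snord14d), without overlap. Snord47, a methylation guide in Gas5, had 9.01 and 9.19 in Mbd4 KO, against 9.16 and 8.97 in control, with each group holding 1 high and 1 low array (0.03, adjusted p = 0.923).

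None of the 5 clusters below 0 came near the threshold (adjusted p between 0.615 and 0.941). Snord58b, in the ribosomal protein gene Rpl17, had 6.59 and 6.57 in Mbd4 KO, against 6.55 and 6.996 in control, and its second cluster had 6.79 and 6.72, against 6.68 and 7.14. In both, control array 2 alone stood above the other arrays, and the differences of -0.20 and -0.16 (limma adjusted p = 0.615 and 0.705) rest on it: without that array the first was 0.027. Snord96a, in the ribosomal scaffold gene Rack1, showed the same layout, with 8.25 and 8.27 in Mbd4 KO, against 8.25 and 8.50 in control (-0.12, adjusted p = 0.665), and 0.011 without control array 2. Snord37, in the elongation factor gene Eef2, had 7.15 and 7.50 in Mbd4 KO, against 7.25 and 7.47 in control, with arrays of each group far apart (-0.04, adjusted p = 0.941).

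Other C/D members had wide spreads as well. Snord57, a methylation guide inside Nop56, itself the gene of a C/D core protein, had 11.54 and 11.51 in Mbd4 KO, against 11.00 and 11.56 in control. Its difference of 0.24 (limma adjusted p = 0.605) came from control array 1 alone and was -0.038 without it. Snord38a had 6.68 and 7.05 in Mbd4 KO, against 6.59 and 6.94 in control, so that array 2 was the higher in both groups (0.10, adjusted p = 0.842). The C/D clusters not named so far (Snord49a, Snord87, Snord55, Snord104, Snord73a, Snord35b, Snord95, Snord73b, Snord16a, Snord52, Snord8, Snord42a, Snord85, Snord42b, Snord82 and Snord61) differed by 0.03 (Snord61) to 0.25 (Snord49a), all above 0 and none past the threshold.

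The box H/ACA snoRNAs had 23 clusters, and their median difference was 0.20, with 22 above 0. Both Mbd4 KO arrays were above both control arrays in 19 of 23 (82.6%), against 51.5% of box C/D clusters and 26.7% of all clusters. The difference between the classes was not tested. All 23 were higher on Mbd4 KO array 2 than on array 1, and 19 of 23 were higher on control array 2 than on array 1.

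Snora16a, in the noncoding host Snhg12, had 9.92 and 10.35 in Mbd4 KO, against 9.76 and 9.86 in control, a difference of 0.32 ± 0.14 (SE; limma adjusted p = 0.392). Most of it lay on Mbd4 KO array 2, and without that array it was 0.11. Snora75, in the nucleolin gene Ncl, had 9.55 and 9.64 in Mbd4 KO, against 9.16 and 9.39 in control (0.32 ± 0.097, SE; adjusted p = 0.237). Snora52, in the ribosomal stalk gene Rplp2, had 12.83 and 13.05 in Mbd4 KO, against 12.58 and 12.67 in control (0.31 ± 0.094, SE; adjusted p = 0.229). The groups did not overlap for any of these H/ACA snoRNAs.

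Snora73a and Snora73b are the U17 RNAs, H/ACA snoRNAs that act in processing of the small-subunit precursor, and both lie in Snhg3. Snora73a had 10.64 and 10.81 in Mbd4 KO, against 10.48 and 10.50 in control, a difference of 0.23 (limma adjusted p = 0.301), and Snora73b differed by 0.21 (adjusted p = 0.357). Snora7a, in the ribosomal protein gene Rpl32 next to Mbd4 on chromosome 6, had 10.65 and 10.76 in Mbd4 KO, against 10.49 and 10.53 in control. Its difference of 0.20 (adjusted p = 0.315) was close to the class median. Snora41, in the elongation factor gene Eef1b2, was the 1 H/ACA member below 0, with 6.68 and 6.89 in Mbd4 KO, against 6.84 and 6.77 in control (-0.03, adjusted p = 0.939). The H/ACA clusters not named so far (those of Snora21, Snora3, Snora33, Snora30, Snora20, Snora70, Snora2b, Snora62, Snora31, Snora69, Snora23, Snora44 and Snora74a) differed by 0.04 (Snora74a) to 0.24 (Snora21), and none passed.

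The scaRNAs, which guide modification of spliceosomal RNAs, did not share 1 pattern. Scarna13, in the noncoding host Snhg10, had 10.49 and 10.58 in Mbd4 KO, against 10.35 and 10.29 in control, without overlap (0.21 ± 0.072, SE; limma adjusted p = 0.28). Scarna8, in the spindle gene Haus6, had 8.46 and 8.50 in Mbd4 KO, against 8.23 and 8.50 in control, so control array 1 alone was low (0.12, adjusted p = 0.677). Both clusters of Scarna17 carried the same values, 10.46 and 10.32 in Mbd4 KO, against 10.52 and 10.14 in control, where the control arrays enclosed the Mbd4 KO arrays (0.06, adjusted p = 0.888).

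A host gene was found in the annotation for 58 of 60 clusters, and 31 of these had a host with a cluster of its own. After counting copies once, 30 pairs with 24 hosts remained. The hosts themselves hardly differed between the groups: their median difference was 0.02 over the 24, with 16 above 0, and 0 of 24 passed limma (lowest adjusted p = 0.418, for Gas5), with 0 at an unadjusted p under 0.05. In 27 of 30 pairs the snoRNA's difference was above its host's, by a median of 0.17, and in 19 of 30 this snoRNA-minus-host value was higher on both Mbd4 KO arrays than on both control arrays, with 0 of 30 the other way. Of the 31 members with a measured host, 20 (64.5%) were themselves higher on both Mbd4 KO arrays, against 26.7% of all clusters. As the hosts varied little, the count of 19 largely repeats this and is no separate result. No share over all clusters exists for the snoRNA-minus-host value. Without control array 1 the median of snoRNA minus host was 0.094. Across the 30 pairs, which share their 4 arrays and in part their hosts, the snoRNA's difference and the host's gave Pearson's r of 0.0422 and Spearman's rho of 0.118. Host differences ran only between -0.11 and 0.15, with a median SE of 0.068. These correlations therefore cannot show whether snoRNAs follow their hosts.

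Single pairs showed the same. Snora52 was 0.31 higher in Mbd4 KO cells, while its host Rplp2 differed by -0.05. Snord53 was 0.36 higher, while Wdr43 differed by 0.01. Snord15a and Snord15b stood at 0.35 and 0.36, and Rps3 at 0.03. The exceptions were Snord47, at 0.03 with its host Gas5 at 0.15, Snord37, at -0.04 with Eef2 at 0.08, and Snord82, at 0.05 with Ncl at 0.06. Host values read spliced and unspliced RNA together. Where a host had several clusters (14 for Rps12, 13 for Rpl23a, 9 for Rpl27a), the brightest was used. Whether that cluster reads the transcript that carries the snoRNA was not checked. The cluster used for Tpt1 is numbered among members of chromosome X, while its snoRNA Snora31 lies on chromosome 14. Those used for Rps12, Rpl10, Rpl23, Rpl23a, Rpl27a, Rpsa and Rps3a1 are also numbered apart from members of their snoRNA's chromosome. In all these pairs the host value may not stand for the transcript that carries the snoRNA. With the mean of a host's clusters the median of snoRNA minus host was 0.17. Most hosts were brighter: all 24 exceeded the upper quartile of every array, as did 12 of the 31 members with a measured host. Rplp2 was an exception, with 9.90 and 9.88 in Mbd4 KO, against 12.83 and 13.05 for its snoRNA Snora52. The part of signal level in the gap between snoRNA and host differences was not tested.

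**Figure D3:**
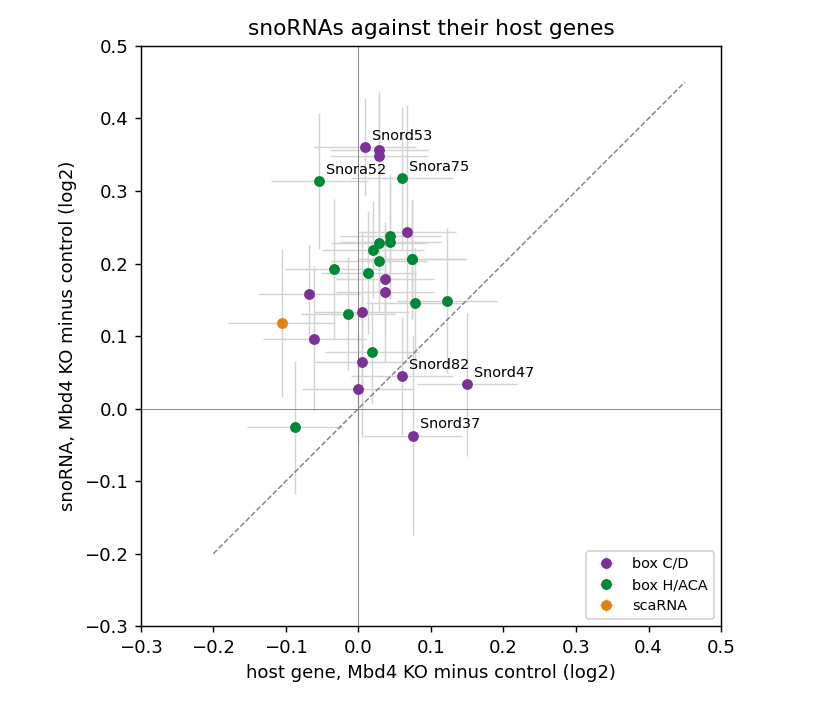
Each point is 1 snoRNA or scaRNA cluster, with the host gene's Mbd4 KO minus control difference on the x axis and its own on the y axis (log2, bars are limma's SE), and the dashed line marks equal differences. Most points lie above the line, with hosts between -0.11 and 0.15 and snoRNAs between -0.04 and 0.36.

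Of the hosts, 10 carried more than 1 snoRNA among the members, by position and without a match of strand. Clusters with several symbols were not counted. In Rps3 the differences of Snord15a and Snord15b lay 0.0080 apart, in Rps3a1 those of Snord73a and Snord73b 0.017 apart, and in Snhg3 those of Snora73a and Snora73b 0.018 apart. The widest gaps were in Rack1, where Snord95 stood at 0.17 and Snord96a at -0.12, in Ncl, where Snora75 stood at 0.32 and Snord82 at 0.05, and in Snhg12, where Snora16a stood at 0.32 and Snora44 at 0.07. These gaps were 0.29, 0.27 and 0.25, next to SEs of 0.076 to 0.14 for the single snoRNAs, and were not tested. Among the members in ribosomal protein genes (24 clusters) the median difference was 0.19, in other protein-coding hosts (18 clusters) 0.12 and in noncoding hosts (16 clusters) 0.17.

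**Figure D4:**
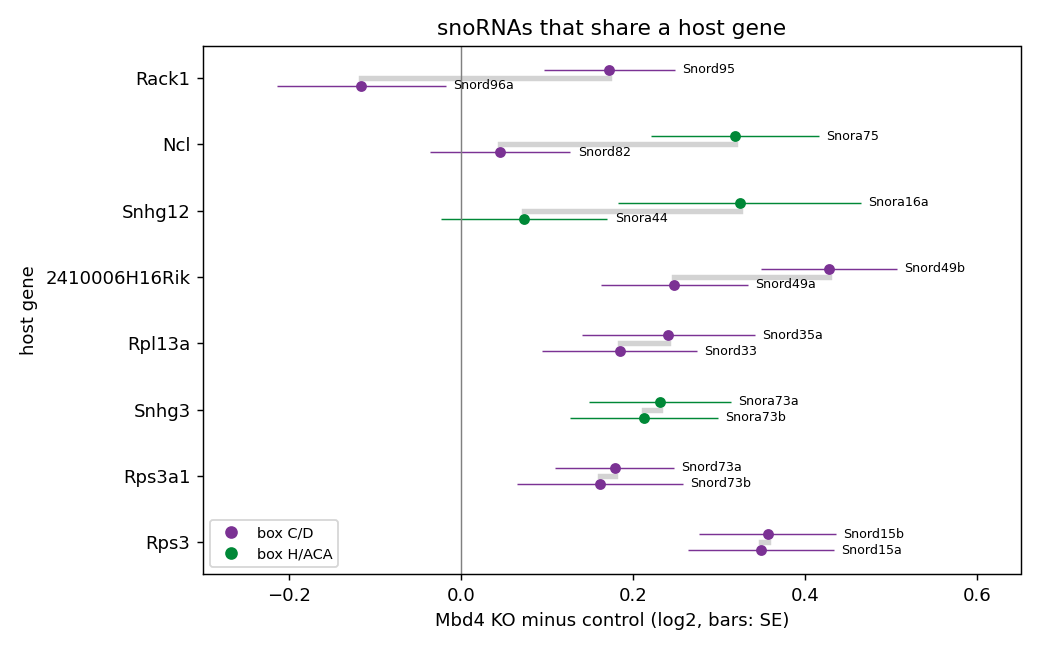
Rows are the host genes named in the text that carry more than 1 measured snoRNA, and each point is a snoRNA's Mbd4 KO minus control difference (log2) with limma's SE as bars. The pairs in Rps3, Rps3a1 and Snhg3 nearly coincide, while those in Rack1, Ncl and Snhg12 are up to 0.29 apart.

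The replicate spread of these clusters was wider than usual for the table. The median SD between arrays was 0.085 in Mbd4 KO and 0.088 in control, against 0.061 and 0.059 over all clusters, and 0.024 and 0.027 over the measured hosts. The widest spread within a group was that of Snord57 in control (SD 0.40), followed by Snord58b in control (0.32) and Snora16a in Mbd4 KO (0.30). The genes were 45 to 275 bases long in the annotation. Over the 57 distinct clusters the difference and the gene's length gave Pearson's r of 0.271 and Spearman's rho of 0.382, and the difference and the mean level gave 0.334 and 0.3. Longer members were mostly of the H/ACA class, and all points share the same 4 arrays.

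No protein gene listed for the pathway passed the test. The 4 core proteins of C/D particles, among them the methyltransferase fibrillarin (Fbl, 0.08) and Nop56 (0.07), had a median difference of 0.06, and the 4 of H/ACA particles, among them the pseudouridine synthase dyskerin (Dkc1, 0.07) and Gar1 (0.06), one of 0.05. All 8 were above 0, and both Mbd4 KO arrays were above both control arrays for 3 of 4 C/D and 2 of 4 H/ACA core proteins, against 26.7% of all clusters. Of 9 assembly factors 7 were above 0 and 5 did not overlap in that direction, with a median of 0.10. Znhit6, which helps assemble C/D particles, differed by 0.23 (adjusted p = 0.234), and Znhit3 by -0.17 (adjusted p = 0.399). Of 6 genes of Cajal bodies and trafficking 3 were above 0, and the largest differences were those of coilin (Coil, -0.16, adjusted p = 0.44) and Smn1 (-0.10, adjusted p = 0.64), which acts in assembly of spliceosomal particles.

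Among 8 genes of snoRNA trimming and decay, 4 were above 0, with a median of 0.01. Parn, a deadenylase that trims the ends of H/ACA RNAs, was the farthest from 0, with 9.35 and 9.50 in Mbd4 KO, against 9.73 and 9.76 in control. It differed by -0.32 ± 0.079 (log2, SE), but did not pass (limma adjusted p = 0.158). Mtrex, the helicase of the nuclear exosome, differed by 0.10. Of 18 listed noncoding snoRNA hosts 7 had a cluster with 1 symbol, 5 of them above 0, with a median of 0.09 and none past the threshold. Snhg15 (0.28, adjusted p = 0.344) and Rian (0.23, adjusted p = 0.425) differed most. Rian was dim, with 4.67 and 4.64 in Mbd4 KO, against 4.27 and 4.57 in control, under the lower quartile of every array.

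The clusters of the imprinted Snord116 family, C/D snoRNAs processed from the long transcript that starts at Snrpn and lost in Prader-Willi syndrome, are not among the 60 because each is paired with 3 symbols (Snord116l2, Snord116l1 and Gm26504). There were 24 of them with 6 distinct sets of values. Over these 6, Mbd4 KO array 1 read 6.35 to 6.66 and Mbd4 KO array 2 read 6.25 to 6.82, against 5.85 to 6.08 on control array 1 and 5.69 to 5.90 on control array 2. Both Mbd4 KO arrays were above both control arrays in all 24, with differences of 0.43 to 0.89 (log2, Mbd4 KO minus control), 1.35-fold to 1.85-fold. In a limma fit chosen after seeing these values, which added the clusters with several symbols (23410 in all), 21 of the 24 passed as higher in Mbd4 KO cells, 3 of the 6 distinct sets, against 0.491% of all clusters (adjusted p between 0.0218 and 0.0658). That count was 24 with an intensity trend, 21 with a robust prior or cyclic loess, 2 with quantile normalization, and 0 with the replicate block or with any 1 array left out. The clusters read near copies of 1 repeat, so they are not independent.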

How the data were processed

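The values are log2 values, 1 per transcript cluster and array, deposited by the authors after RMA, as the submitters' processing notes name it. RMA subtracts background, equalises the arrays' distributions and combines each cluster's probes, and is known to compress fold changes. No source used here gives its version, its settings or the array's genome build. Of 35556 clusters, 21789 have 1 symbol in the platform's gene table, 1621 several and 12146 none there. The 21789 were compared (2 Mbd4 KO against 2 control arrays, grouped by title) by linear models with a moderated spread (R 4.3.3, limma 3.58.1, neither trend nor robust prior). Tests were two-sided and p-values were adjusted over all of them by Benjamini-Hochberg. SE is limma's moderated standard error, with 2 residual and 4.00 prior degrees of freedom. Precision is limited by having 4 arrays, for which the smallest exact permutation p is 0.333. On simulated data with known changes, limma recovered 92.4% of log2 changes of 1, called 2 unchanged clusters and 0 with the wrong sign.

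A host is the gene of the RefSeq table (GRCm38.p6) whose span holds the snoRNA gene, the shortest where several do (3 clusters). The table gives no strand, so the planned match of strand was not made. All 60 members matched a RefSeq gene by gene ID. A host's or listed gene's value is its cluster with the highest mean, and the locus of that cluster was not checked. Windows around gene starts are RefSeq's. Members and lists were chosen with earlier results of these data known. The genes named are the 8 largest positive and all negative differences, the 4 widest spreads, all scaRNAs, Snora7a, the snoRNAs in Gas5, Snhg1 and Rpl13a, their hosts, and 2 genes and any passing one from each list. Others, such as Snord14e and the Snora73 genes, were named for their known role or for sharing a host after their values were seen. No Snord113, Snord114, Snord115 or Snord116 cluster has exactly 1 symbol. The results for 1 host gene are not reported here.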

Additional observations from a re-analysis of the deposited data

How the results depend on the processing

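None of the 60 snoRNA and scaRNA clusters with 1 symbol reached the threshold except under 2 settings. With an intensity trend 5 of 60 passed, and without the dimmest 30% of clusters, which kept 57 of the 60, 2 did. The count was 0 under the 10 other planned settings. The number of all clusters passing (302) was 1121 with a trend, 640 without the dimmest 30%, 22 with all 35556 clusters tested, 159 with the replicate number as a block, and 65 to 75 with 1 array left out. The median snoRNA difference (0.18) was 0.17 with quantile normalization and with cyclic loess and 0.12 to 0.23 with 1 array left out. The median of snoRNA minus host was 0.094 to 0.21 with 1 array left out, the lowest without control array 1.

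Replicate numbers are shared by the groups, but nothing in the labels ties them: across all clusters the deviations of same-numbered arrays correlated with r = 0.0831, and across the 60 snoRNA and scaRNA clusters with r = 0.23, and the block left the snoRNA count at 0. Of 263 values of named members under other settings, 242 kept direction and side of the threshold, 7 passed it and 14 turned sign. All sign changes came from leaving out 1 array, in Snord58b (-0.42 to 0.027), Snord96a (-0.24 to 0.011), Snord37 (-0.21 to 0.14), Snora41 (-0.13 to 0.081), Snord57 (-0.038 to 0.52), Snord38a (-0.091 to 0.29), Scarna17 (-0.13 to 0.25), Scarna8 (-0.017 to 0.25) and Snord47 (-0.062 to 0.13). The causes were not tested. No raw intensity was used, so signal over background is unknown for single clusters.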

Other observations

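The cluster shared by Snurf and Snrpn, the coding genes at the start of the transcript that carries the Snord116 snoRNAs, had 7.10 and 7.42 in Mbd4 KO, against 5.75 and 6.05 in control. It rose by 1.36 ± 0.14 (log2, SE), 2.56-fold, in the limma fit with several-symbol clusters added, chosen after seeing these values (adjusted p = 0.0197). The call held with the replicate block (0.00798) and was lost with any 1 array left out (0.0532 to 0.107), while the difference stayed between 1.20 and 1.52. Of other imprinted genes of that region of chromosome 7, chosen after their values were seen, Ndn differed by -0.04, Magel2 by 0.03, Mkrn3 by -0.14 and Peg12 by -0.08, and none passed (adjusted p of 0.433 to 0.924).

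The other 17 clusters that pair a snoRNA with a second symbol, often its host, were all above 0, against 57.6% of all clusters with 1 symbol, and their median difference was 0.18. In 14 of the 17 both Mbd4 KO arrays were above both control arrays, against 26.7% of those. The 17 held only 15 distinct sets of values, and copies were counted separately in these counts. Among the 17, Snord34 and Snord32a, each paired with Rpl13a, differed by 0.18 and 0.27, and Snora34, paired with Mir1291, by 0.36.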
